A study of Neurospora crassa with 14 samples.

Results

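Xylan is the main hemicellulose of many plant cell walls, and the filamentous fungus Neurospora crassa secretes enzymes that take it apart. Endoxylanases of the glycoside hydrolase families GH10 and GH11 cut the xylan backbone inside the chain, and enzymes of family GH43 remove xylose or arabinose units from ends and side branches. In N. crassa such genes are known to be switched on by xylan or xylose through the transcription factor XLR-1, and to be held down by the repressor CRE-1 while a preferred sugar is present. Hemicellulase genes are described here in strains deleted for genes studied with the RPD3 histone deacetylase complexes, and in mycelium given a deacetylase inhibitor.

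The 7 genes are gh10-1 (NCU05924) and gh10-2 (NCU08189) of GH10, gh11-1 (NCU02855) and gh11-2 (NCU07225) of GH11, and NCU01900, NCU09652 and NCU07326 of GH43. They were chosen with earlier results of these data known, and 2 further genes with a GH10 symbol are not among them. The chosen genes are 7 of the 9552 genes found in any table, and all 7 stand in every table (9477 genes in each deletion table and 9455 in the table of the inhibitor). The last 3 have no symbol in the reference gene table (assembly NC12) and are called by their locus tags, with the family taken from the rule. No role beyond the family is given for them.

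The 14 messenger RNA libraries fell into 7 groups of 2. A deletion set of 10 libraries held Δsds3 (ΔNCU01599, strains N8193 and N8194), Δrlp1 (ΔNCU09007, strains N8185 and N8186), Δrlp2 (ΔNCU02898, strains N6706 and N6707), Δeaf-3 (ΔNCU06788, strains N5278 and N6169) and wild type (WT, strains N3752 and N3753). A second set of 4 libraries held strain N6279 (his-3; pNCU05173::hph; pNCU07152::nat-1) with 5 ul of Trichostatin A (TSA), an inhibitor of histone deacetylases, and the same strain with 0 ul, which thus carried the same mutation and markers. The question put in the series' design was how transcription changes genome-wide in mutants of the RPD3L and RPD3S complexes and with the inhibitor. The 2 samples of WT and of each deletion were different strains, and those with TSA and of its control were biological replicates of 1 strain. All cultures were 5 ml of Vogel's medium with 1.5% sucrose, shaken for 16 h at 32 °C, with histidine added for N6279, so no group was grown on xylan.

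Fold changes, p-values and adjusted p-values of single genes come from the authors' deposited table of the comparison named, and ± gives a standard error worked back from the p-value there. These tables hold no value per library, so depth, library sizes and the values of the 2 libraries of a group could not be shown. The words rose and fell are kept for genes with an adjusted p below 0.05. The 4 deletions were set against the same WT libraries, and their comparisons are not separate evidence. The deleted gene itself fell by 8.95 ± 1.48 on the log2 scale without eaf-3 (NCU06788) and fell by 2.95 ± 0.32 without rlp2 (NCU02898) in the authors' deposited table. The fall was smaller without sds3 (NCU01599, -0.76 ± 0.19) and without rlp1 (NCU09007, -1.03 ± 0.33), where much of the signal was still read.

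Only 2 of the 7 hemicellulase genes rose in Δeaf-3, the endoxylanase gene gh10-1 and the GH43 gene NCU09652, and none fell. Of all genes tested there, 31.7% passed (20.2% higher, 11.5% lower), so a count of 2 in 7 lies near the background. This count depends on the choice of genes, since 2 further GH10 genes outside the 7 also rose in Δeaf-3. In Δrlp1 only the GH43 gene NCU01900 rose and none fell, against 23.2% of all tested genes (14.6% higher, 8.61% lower). No hemicellulase gene passed in Δsds3, where 34.6% of tested genes did (19.0% higher, 15.7% lower). None passed in Δrlp2, against 11.0% (6.99% higher, 4.02% lower), or with TSA, against 8.77% (5.15% higher, 3.62% lower). Only 5 of the 7 had an adjusted p in Δrlp2 and 6 with TSA. By the deposited p-values before adjustment, a p under 0.05 was reached by 2 of 7 genes in Δsds3, 1 in Δrlp1, 3 in Δrlp2, 2 in Δeaf-3 and none with TSA. The same was reached by 40.7%, 33.3%, 20.6%, 39.6% and 18.6% of all genes in these 5 comparisons. The median log2 fold change of the 7 genes was 0.68 in Δsds3, 0.41 in Δrlp1, 0.82 in Δrlp2, 0.70 in Δeaf-3 and -0.17 with TSA. Over all genes of the same tables it was 0.07, 0.00, 0.00, 0.08 and -0.10. The TSA values are thus best read against a table whose centre lies at -0.10.

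**Figure D1:**
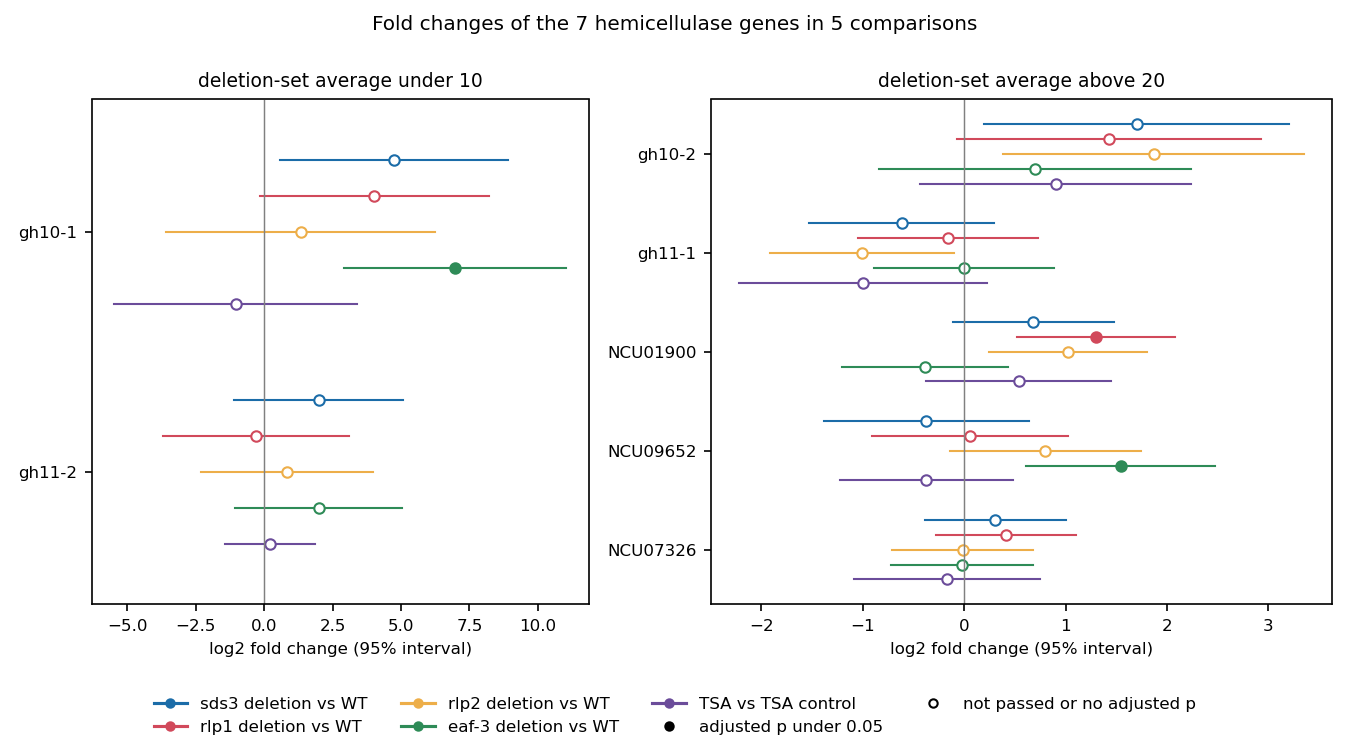
Log2 fold changes of the 7 hemicellulase genes (rows) in 5 comparisons (colours), with 95% intervals from the implied standard errors; filled points have an adjusted p under 0.05. The 2 genes with an average under 10 have a wider axis of their own. Filled points are gh10-1 and NCU09652 in Δeaf-3 and NCU01900 in Δrlp1.

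Conidia, the asexual spores, were a possible second cell type of these cultures. Of 8 conidiation markers 5 rose in Δsds3, 8 in Δrlp1, 3 in Δrlp2, 2 in Δeaf-3 and 1 with TSA, and none fell. Over all tested genes 19.0% rose in Δsds3, 14.6% in Δrlp1, 6.99% in Δrlp2, 20.2% in Δeaf-3 and 5.15% with TSA. Their log2 fold changes ran from -0.26 to 4.04 in Δsds3, from 1.80 to 4.14 in Δrlp1, from -0.38 to 2.80 in Δrlp2, from -1.67 to 2.97 in Δeaf-3 and from -0.60 to 2.44 with TSA. Their summed implied level was 99247 in Δsds3, 238272 in Δrlp1, 97804 in Δrlp2, 17812 in Δeaf-3 and 23216 in WT, and no marker stood at 0 in any group. Most of this sum was 1 marker, eas (NCU08457), in each of the 5 groups. Without eas the sum was 21783 in Δsds3, 18488 in Δrlp1, 9377 in Δrlp2, 6134 in Δeaf-3 and 2797 in WT, so that Δeaf-3 lay below WT with eas and above it without. Leaving out eas was chosen after its values were seen. The part of cell composition in these results was not tested, and in bulk samples fewer cells of a type and less RNA per cell cannot be told apart.

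How large a change could have been called differed widely among the 7 genes. The deposited average, a normalized signal over libraries that is not corrected for gene length, was 5.87 for gh10-1 and 3.95 for gh11-2 in the deletion set. It was between 22.9 (gh10-2) and 101.6 (NCU07326) for the other 5. The standard errors of gh10-1 and gh11-2 ran from 1.56 to 2.51 in the deletion tables, while those of the other 5 ran from 0.35 to 0.78. At the largest p still called in the eaf-3 table, a log2 fold change of 4.99 would have been needed for gh10-1 and of 3.77 for gh11-2, but of only 0.86 for NCU07326. A missed call for the first pair therefore says little about their expression.

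Of the endoxylanase genes, gh10-1 was read close to 0 in WT. Group means can be implied from the average if it spans all 10 deletion-set libraries with groups weighted alike, which the files do not state. Taken so, its mean was 4.54 in Δsds3, 2.77 in Δrlp1, 0.43 in Δrlp2, 21.4 in Δeaf-3 and 0.17 in WT. Under this assumption most of the signal of gh10-1 lay in Δeaf-3. There gh10-1 rose by 6.98 ± 2.07 in the authors' deposited table (adjusted p = 0.00435). With a WT mean so near 0 the fitted size depends on the authors' model and is no bound. Its values were 4.74 ± 2.12 in Δsds3 (adjusted p = 0.069) and 4.03 ± 2.14 in Δrlp1 (adjusted p = 0.159), neither past the test. In Δrlp2 it was 1.33 ± 2.51, and with TSA -1.04 ± 2.26, with no adjusted p deposited for either. The rise in Δeaf-3 was not shown to exceed the values of the other deletions: the difference was 2.24 ± 2.96 from Δsds3, 2.95 ± 2.98 from Δrlp1 and 5.65 ± 3.25 from Δrlp2 (adjusted p = 0.667, 0.634 and 0.335).

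The other endoxylanase gene of the pair, gh10-2, had positive values in all 5 comparisons, but none passed. Its implied mean was 30.5 in Δsds3, 25.2 in Δrlp1, 34.2 in Δrlp2, 15.3 in Δeaf-3 and 9.38 in WT. WT was the lowest group of the 5, and Δeaf-3 lay nearest to it. In the authors' deposited table gh10-2 was at 1.87 ± 0.76 in Δrlp2 (adjusted p = 0.0916), 1.70 ± 0.77 in Δsds3 (adjusted p = 0.0708), 1.43 ± 0.76 in Δrlp1 (adjusted p = 0.163) and 0.70 ± 0.78 in Δeaf-3 (adjusted p = 0.527). With TSA it was 0.91 ± 0.68 (adjusted p = 0.508). The 95% intervals reach 3.35 in Δrlp2 and 3.20 in Δsds3, so these values neither passed nor left out a large rise of gh10-2. No pair of deletions differed for gh10-2, with differences between -1.16 and -0.17 in size and standard errors of 1.07 to 1.10.

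The GH11 endoxylanase gene gh11-1 had no value above 0 in any comparison. Its implied mean was 44.6 in Δsds3, 61.2 in Δrlp1, 33.9 in Δrlp2, 68.3 in Δeaf-3 and 68.3 in WT. Its lowest value, in Δrlp2, was -1.01 ± 0.46 in the authors' deposited table, with an unadjusted p of 0.0293 but an adjusted p of 0.153. With TSA gh11-1 was at -1.0 ± 0.62 (adjusted p = 0.388), in Δsds3 at -0.61 ± 0.47 (adjusted p = 0.321) and in Δrlp1 at -0.16 ± 0.45 (adjusted p = 0.837). In Δeaf-3, where gh10-1 rose, the gh11-1 value was 0.00 with an interval from -0.88 to 0.88, which ends below a log2 change of 1. The other GH11 gene, gh11-2, had an implied mean of 6.79 in Δsds3, 1.40 in Δrlp1, 3.04 in Δrlp2, 6.79 in Δeaf-3 and 1.71 in WT. None of its values passed: 1.98 ± 1.57 in Δsds3, -0.29 ± 1.73 in Δrlp1, 1.99 ± 1.56 in Δeaf-3 and 0.22 ± 0.84 with TSA, and 0.82 ± 1.60 in Δrlp2 with no adjusted p.

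**Figure D2:**
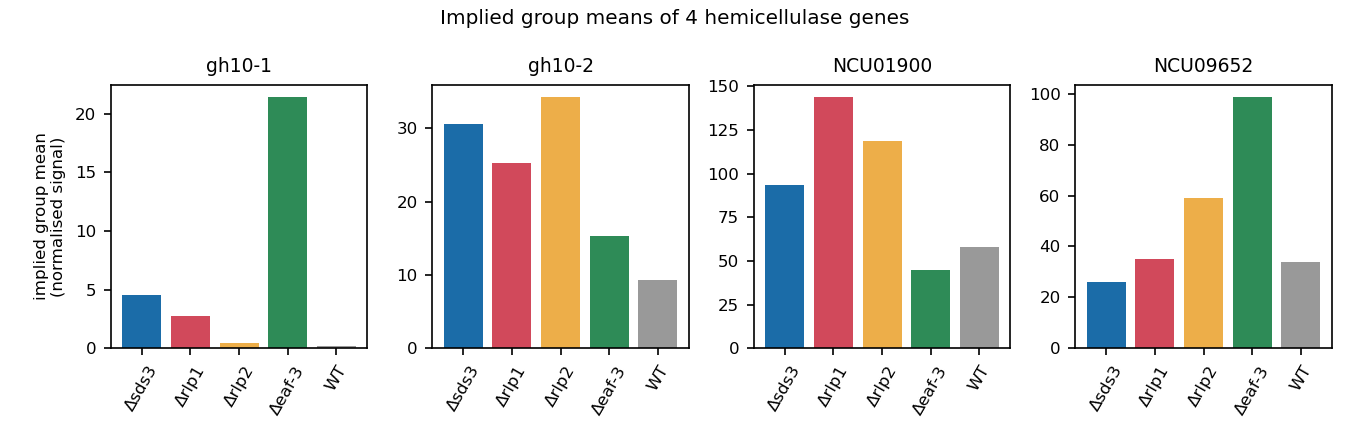
Implied group means (bars, normalized signal, not corrected for gene length, axis from 0) of gh10-1, gh10-2, NCU01900 and NCU09652 in the 4 deletion groups and WT, computed from the deposited average and fold changes; there are no values per library, so the bars carry no error. Δeaf-3 is the highest group for gh10-1 (21.4) and NCU09652 (98.6) and the lowest for NCU01900 (44.7).

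Of the GH43 genes, NCU09652 rose in Δeaf-3. Its implied mean was 26.1 in Δsds3, 35.2 in Δrlp1, 58.9 in Δrlp2, 98.6 in Δeaf-3 and 33.8 in WT. In the authors' deposited table the rise in Δeaf-3 was 1.54 ± 0.48 (adjusted p = 0.00637), or 2.92-fold with an interval of 1.53 to 5.57. The values of NCU09652 in the other comparisons did not pass: 0.80 ± 0.48 in Δrlp2 (adjusted p = 0.319), 0.06 ± 0.49 in Δrlp1 (adjusted p = 0.956), -0.37 ± 0.51 in Δsds3 (adjusted p = 0.619) and -0.37 ± 0.44 with TSA (adjusted p = 0.721). The difference Δeaf-3 minus Δsds3 was 1.92 ± 0.70 and passed its own test (adjusted p = 0.0347, normal test of the difference, adjusted over 9256 genes). The difference Δeaf-3 minus Δrlp1 was 1.49 ± 0.69 (adjusted p = 0.15) and Δeaf-3 minus Δrlp2 was 0.74 ± 0.68 (adjusted p = 0.639), so neither was told apart.

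NCU01900 had a different order of groups. Its implied mean was 93.6 in Δsds3, 143.9 in Δrlp1, 118.5 in Δrlp2, 44.7 in Δeaf-3 and 58.3 in WT, so that Δeaf-3 was the lowest. It rose in Δrlp1, by 1.30 ± 0.40 in the authors' deposited table (adjusted p = 0.00756), or 2.47-fold with an interval of 1.44 to 4.23. In Δrlp2 it was at 1.02 ± 0.40, with an unadjusted p of 0.0101 and an adjusted p of 0.0746. In Δsds3 it was at 0.68 ± 0.41 (adjusted p = 0.189), in Δeaf-3 at -0.38 ± 0.42 (adjusted p = 0.518) and with TSA at 0.54 ± 0.46 (adjusted p = 0.586). The difference Δeaf-3 minus Δrlp1 was -1.69 ± 0.58 and passed (adjusted p = 0.0307). Δeaf-3 minus Δrlp2 was -1.41 ± 0.58 (adjusted p = 0.112) and Δeaf-3 minus Δsds3 was -1.07 ± 0.58 (adjusted p = 0.196). Among Δrlp1, Δrlp2 and Δsds3 the NCU01900 values lay within 0.62 of each other.

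The remaining GH43 gene, NCU07326, had the highest average and the narrowest intervals of the 7 genes in the deletion set. Its implied mean was 113.5 in Δsds3, 121.8 in Δrlp1, 90.8 in Δrlp2, 90.4 in Δeaf-3 and 91.6 in WT. In the authors' deposited table its values were 0.31 ± 0.36 in Δsds3, 0.41 ± 0.35 in Δrlp1, -0.01 ± 0.35 in Δrlp2, -0.02 ± 0.36 in Δeaf-3 and -0.17 ± 0.47 with TSA. The intervals of NCU07326 end at 0.68 in both Δrlp2 and Δeaf-3 and at 1.10 in Δrlp1, so a rise beyond 2.14-fold lies outside the interval of every deletion.

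Over the 6 pairs of deletions and 7 genes, 2 of 42 differences passed, both with Δeaf-3 on one side. They were Δeaf-3 minus Δsds3 for NCU09652, above 0, and Δeaf-3 minus Δrlp1 for NCU01900, below 0. Of all genes 11.5% passed above and 8.77% below 0 in the first pair, and 7.0% above and 5.99% below 0 in the second. No gene of the 7 passed for Δeaf-3 minus Δrlp2 (6.67% of all genes above and 2.73% below 0) or Δrlp1 minus Δsds3 (4.97% above, 5.23% below). None passed for Δrlp1 minus Δrlp2 (0.849% above, 0.141% below) or Δsds3 minus Δrlp2 (3.95% above, 3.47% below). The difference test takes the errors of both deletions as independent. Since the WT libraries enter both, these errors are too wide, and with an assumed share of WT variance taken out 5 of the 42 differences passed instead of 2. The added calls come with narrower errors on the same differences. The share of all genes that passed in that setting was not computed, so the 5 have no background beside them. The 3 added were Δeaf-3 minus Δrlp1 for NCU09652 (adjusted p = 0.013) and Δeaf-3 minus Δsds3 and minus Δrlp2 for NCU01900 (adjusted p = 0.0314 and 0.00579).

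**Figure D3:**
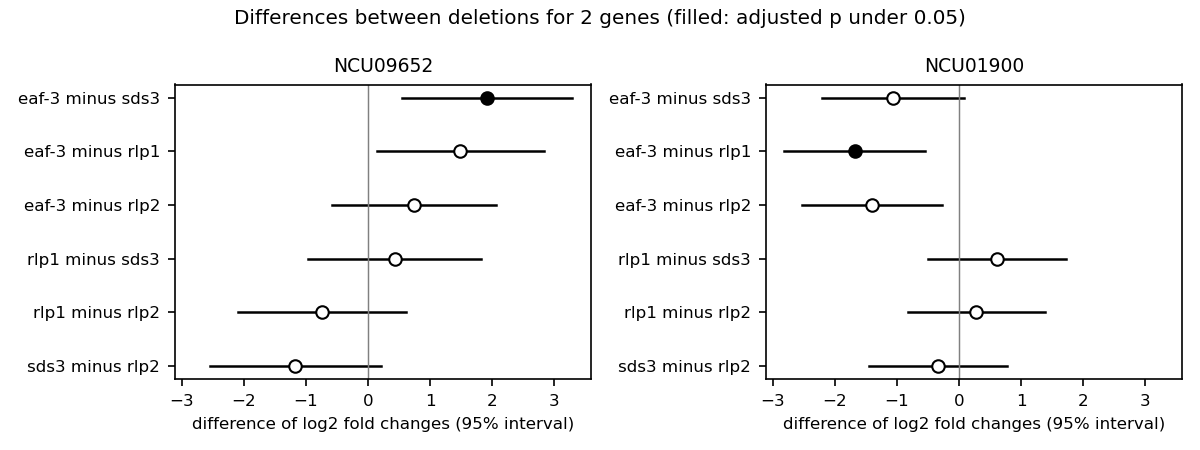
Differences of log2 fold changes between deletions (first-named minus second-named) for NCU09652 and NCU01900, with 95% intervals from independent errors; filled points have an adjusted p under 0.05. These genes are shown because a difference of each passed, 1.92 for NCU09652 (Δeaf-3 minus Δsds3) and -1.69 for NCU01900 (Δeaf-3 minus Δrlp1).

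The reference table names 2 further GH10 genes, gh10-3 (NCU04997) and gh10-4 (NCU07130), and both rose in Δeaf-3. In the authors' deposited table gh10-3 rose by 1.68 ± 0.56 (adjusted p = 0.0123) and gh10-4 by 3.47 ± 1.06 (adjusted p = 0.00575). In the other deletions gh10-3 was at -1.01 ± 0.58 in Δsds3, -0.74 ± 0.57 in Δrlp1 and 0.30 ± 0.56 in Δrlp2, none past the test. Its value in Δeaf-3 differed from that in Δsds3 by 2.70 ± 0.80 (adjusted p = 0.0072) and from that in Δrlp1 by 2.42 ± 0.80 (adjusted p = 0.0232), while the difference from Δrlp2, 1.38 ± 0.79, did not pass (adjusted p = 0.332). For gh10-4 no difference of Δeaf-3 from another deletion passed: it was 4.14 ± 1.71 from Δsds3, 3.68 ± 1.62 from Δrlp1 and 3.32 ± 1.58 from Δrlp2 (adjusted p = 0.0686, 0.127 and 0.2). With TSA gh10-3 fell (-1.55 ± 0.51, adjusted p = 0.0297), in another strain with its own control, and the difference from Δeaf-3 was not tested. Counting gh10-1, 3 of the 4 genes with a gh10 symbol rose in Δeaf-3, gh10-2 being the exception, where 20.2% of all tested genes rose. The count of 3 includes 2 genes that are not among the 7. No further gene with a gh11 symbol, and none with a gh43 symbol, was found in the reference table. The 3 GH43 members have no symbol there either, so this search cannot show whether further GH43 genes exist.

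Accessory enzymes complete the breakdown of hemicellulose: β-xylosidases split the short chains that endoxylanases release, and others take off side groups or cut other hemicelluloses. A list of 10 such genes was formed from symbols and locus tags, with earlier results of these data known. Its counts are a description and no independent evidence. In each comparison 9 of the 10 had an adjusted p. In Δeaf-3 7 of the 10 rose and none fell, 2 did not pass and 1 had no adjusted p (median 2.93, against 0.08 over all genes, of which 20.2% rose and 11.5% fell). The genes gh3-7 and gh3-8 belong to GH3, a family that holds β-xylosidases and β-glucosidases, and rose by 3.71 ± 0.84 (adjusted p = 0.000104) and 3.05 ± 0.67 (adjusted p = 6.28e-05) in the authors' deposited table. NCU02343 rose by 2.80 ± 0.45 (adjusted p = 1.48e-08), NCU09491 by 4.21 ± 0.66 (adjusted p = 5.72e-09) and NCU09775 by 3.92 ± 0.71 (adjusted p = 7.33e-07). In Δsds3 4 of these 10 genes rose and 2 fell, where 19.0% of all tested genes rose and 15.7% fell (median 0.76, against 0.07). In Δrlp1 4 rose and none fell, where 14.6% of all rose (median 0.74, against 0.00), and in Δrlp2 1 rose and none fell, where 6.99% of all rose (median 0.50, against 0.00). With TSA none passed by the deposited adjusted p, while 4 had an unadjusted p under 0.05 (median -0.05, against -0.10).

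Some of these accessory genes set Δeaf-3 apart and others did not. The difference of gh3-7 was 3.79 ± 1.30 from Δsds3, 4.84 ± 1.38 from Δrlp1 and 4.18 ± 1.30 from Δrlp2, all past the test (adjusted p = 0.0228, 0.00628 and 0.019). For NCU02343 Δeaf-3 differed from Δsds3 by 3.01 ± 0.64 (adjusted p = 6.78e-05) and from Δrlp1 by 2.22 ± 0.64 (adjusted p = 0.00699), while 1.78 ± 0.64 from Δrlp2 did not pass (adjusted p = 0.0539). NCU07351, by contrast, rose in all 4 deletions, by 1.19 ± 0.31 in Δsds3, 1.63 ± 0.31 in Δrlp1, 1.01 ± 0.31 in Δrlp2 and 1.36 ± 0.31 in Δeaf-3 in the authors' deposited table. NCU00972 fell in Δsds3 (-2.84 ± 0.69, adjusted p = 0.0003), and was at 1.37 ± 0.62 in Δeaf-3 (adjusted p = 0.0735), a difference of 4.21 ± 0.92 (adjusted p = 0.000114). In all, Δeaf-3 differed upward from Δsds3 for 4 of the 10 genes, from Δrlp1 for 2 and from Δrlp2 for 4, where 11.5%, 7.0% and 6.67% of all genes did. None of the 10 differed among Δsds3, Δrlp1 and Δrlp2.

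**Figure D4:**
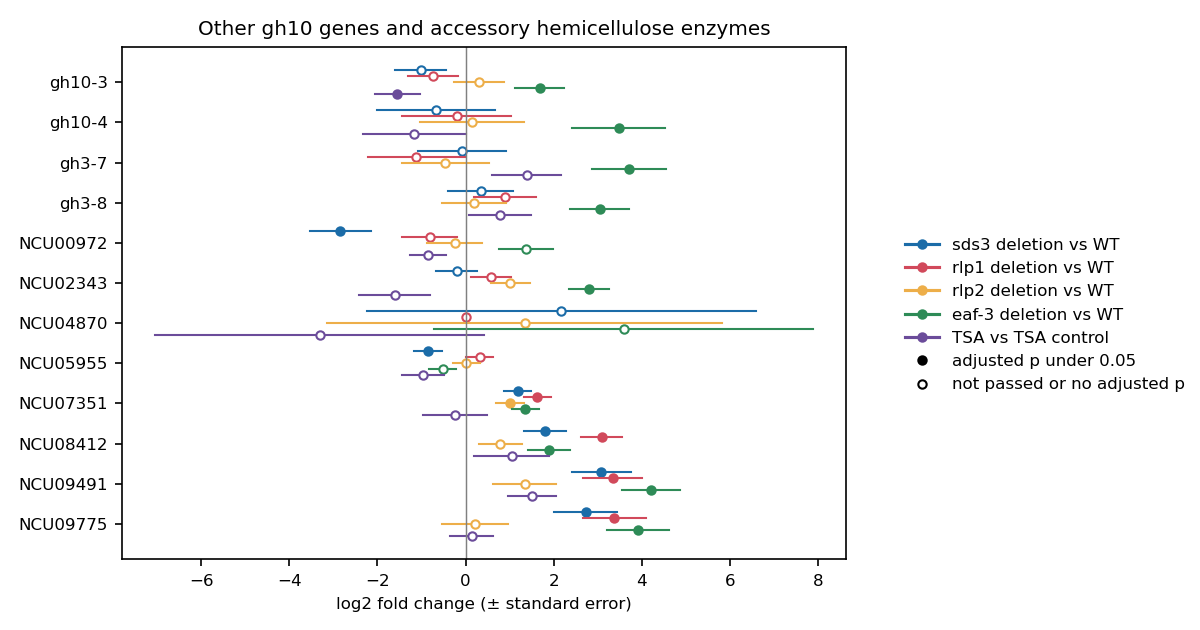
Log2 fold changes of the other 2 GH10 genes and of 10 accessory hemicellulose genes (rows) in 5 comparisons (colours), with bars of 1 implied standard error where one could be computed; filled points have an adjusted p under 0.05. In Δeaf-3 9 of the 12 genes are filled and lie above 0, while with TSA only gh10-3 is filled, at -1.55.

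Sugars released from xylan and arabinan are taken up and reduced before they enter central metabolism. The list of 11 genes for this step also holds the cellodextrin transporter gene cdt-1, and cdt-2. Its counts are therefore not of xylan and arabinan sugars alone. In Δeaf-3 2 of the 11 rose, namely xr (NCU08384), which encodes xylose reductase, by 1.08 ± 0.20 (adjusted p = 1.9e-06), and cdt-1 by 1.31 ± 0.30 (adjusted p = 0.000117). None fell there. In Δsds3 4 of the 11 fell and none rose: NCU00821 was at -3.46 ± 0.32 (adjusted p = 4.11e-24), NCU00891 at -1.32 ± 0.21 (adjusted p = 3.97e-09), cdt-1 at -0.99 ± 0.31 (adjusted p = 0.00677) and NCU00643 at -1.12 ± 0.39 (adjusted p = 0.0153). In Δrlp1 xyk-1, named for xylulokinase, rose by 1.19 ± 0.26 and NCU00891 fell (-0.58 ± 0.20), and in Δrlp2 xyk-1 (0.87 ± 0.26) and xr (0.67 ± 0.20) rose. With TSA cdt-1 (-1.24 ± 0.40) and NCU00891 (-0.58 ± 0.19) fell in the authors' deposited table. Of all tested genes 20.2% rose in Δeaf-3, 15.7% fell in Δsds3, 14.6% rose and 8.61% fell in Δrlp1, 6.99% rose in Δrlp2 and 3.62% fell with TSA. The list's median was 0.39 in Δeaf-3, -0.96 in Δsds3, 0.50 in Δrlp1, 0.19 in Δrlp2 and 0.38 with TSA.

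The regulator of xylanase genes, xlr-1 (NCU06971), did not pass in any comparison. Its deposited values were -0.75 ± 0.51 in Δsds3, 0.68 ± 0.48 in Δrlp1, 0.52 ± 0.48 in Δrlp2, 0.51 ± 0.48 in Δeaf-3 and 0.89 ± 0.67 with TSA. The carbon catabolite repressor gene cre-1 did not pass either, with 0.42 ± 0.21 in Δsds3, 0.51 ± 0.21 in Δrlp1, 0.53 ± 0.21 in Δrlp2, 0.29 ± 0.21 in Δeaf-3 and 0.06 ± 0.31 with TSA. Of the 6 regulators listed, 1 rose in each of 3 deletions: NCU09033 in Δsds3 (1.31 ± 0.24), the cellulase regulator gene clr-1 in Δrlp1 (0.86 ± 0.23) and vib-1, a transcription factor gene, in Δeaf-3 (0.57 ± 0.18). None passed in Δrlp2 or with TSA by the deposited adjusted p, and 1 in each had an unadjusted p under 0.05. Of all tested genes 19.0% rose in Δsds3, 14.6% in Δrlp1 and 20.2% in Δeaf-3. An unadjusted p under 0.05 was reached by 20.6% of all genes in Δrlp2 and by 18.6% with TSA, so these counts of 1 in 6 lie near the background. In Δsds3 and in Δrlp1 3 of the 6 regulators had one, where 40.7% and 33.3% of all genes did. In Δeaf-3 1 of the 6 had one, where 39.6% of all genes did.

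Other enzymes of plant cell wall breakdown are set beside these counts. Of 12 cellulase and cellobiose dehydrogenase genes 2 rose in Δeaf-3, 2 in Δrlp1, 2 in Δrlp2, 1 in Δsds3 and 2 with TSA, and 1 fell in Δrlp1. Of 11 lytic polysaccharide monooxygenase genes of the gh61 group 3 rose in Δeaf-3, 1 rose and 1 fell in Δrlp1, 1 rose in Δrlp2, 1 rose and 3 fell in Δsds3, and 2 fell with TSA. Over all tested genes 20.2% rose and 11.5% fell in Δeaf-3, 14.6% and 8.61% in Δrlp1, and 6.99% and 4.02% in Δrlp2. In Δsds3 19.0% rose and 15.7% fell, and with TSA 5.15% rose and 3.62% fell. An adjusted p was deposited for only 9 of the 12 and 7 of the 11 genes in Δrlp2. It was deposited for 11 of the 12 in Δrlp1 and with TSA, and for 10 of the 11 with TSA. The lists are described by their counts only, and no difference between them was tested.

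Position was read from the gene order of the reference table. NCU09652 lies 20 genes from an end of linkage group IV and gh11-2 lies 84 genes from an end of linkage group V, while the other 5 lie 178 (gh11-1) or more genes from an end. Next to gh10-1 stands cdh-2 (NCU05923), which encodes a cellobiose dehydrogenase. In the authors' deposited table cdh-2 rose in all 4 deletions, by 5.02 ± 0.72 in Δsds3, 5.26 ± 0.72 in Δrlp1, 4.91 ± 0.72 in Δrlp2 and 4.74 ± 0.72 in Δeaf-3. The next gene on that side, NCU05922, also rose in all 4, by 1.62 ± 0.31 in Δsds3, 1.97 ± 0.30 in Δrlp1, 1.61 ± 0.31 in Δrlp2 and 1.21 ± 0.31 in Δeaf-3. On the other side of gh10-1, NCU05925 passed in none of the 5 comparisons. The gene after it, NCU05926, fell in Δsds3 (-0.95 ± 0.27, adjusted p = 0.0021) and in Δeaf-3 (-0.80 ± 0.26, adjusted p = 0.0112) in the authors' deposited table. It did not pass in Δrlp1, in Δrlp2 or with TSA.

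Beside NCU09652, the gene NCU09651 rose in Δeaf-3 by 1.41 ± 0.37 and was at -0.48 ± 0.40 in Δsds3, -0.44 ± 0.39 in Δrlp1 and 0.79 ± 0.37 in Δrlp2 in the authors' deposited table, none of these 3 past the test. Whether the 2 genes move together was not tested. NCU09653, on the other side, passed in none. Beside gh11-2, NCU07226 rose in every deletion, by 8.81 ± 1.51 in Δsds3, 8.07 ± 1.52 in Δrlp1, 7.50 ± 1.52 in Δrlp2 and 5.05 ± 1.57 in Δeaf-3, while gh11-2 itself passed in none. The implied WT mean of NCU07226 was 0.17, so its fitted sizes depend on the authors' model and are no bound. Beside NCU01900, NCU01899 rose in Δeaf-3 by 2.91 ± 0.50, where NCU01900 was at -0.38. NCU07326 stands 2 genes from the conidiation gene con-10, which rose by 3.69 ± 0.96 in Δsds3, 3.89 ± 0.96 in Δrlp1 and 2.44 ± 0.56 with TSA. On one side of gh10-2, NCU08191 rose by 3.63 ± 0.64 in Δsds3, 4.18 ± 0.63 in Δrlp1 and 3.41 ± 0.64 in Δrlp2. It was at 0.25 ± 0.74 in Δeaf-3. NCU08190 rose there in Δsds3 (2.07 ± 0.59) and Δrlp2 (1.76 ± 0.58). On the other side NCU07510 rose in Δsds3 (4.75 ± 1.88). It was at 4.54 ± 1.88 in Δeaf-3, where its adjusted p lay just above 0.05. The implied WT mean of NCU07510 was 0.46, so its fitted sizes also depend on the authors' model. The gene after it, NCU07511, rose in Δeaf-3 (3.63 ± 0.99). Beside gh11-1, NCU02856 fell in Δsds3 (-3.27 ± 0.87) and rose in Δeaf-3 (1.57 ± 0.58). The flanking genes named are not all that passed. Over all 28 flanking genes 7 rose and 1 fell in Δeaf-3, 9 rose and 3 fell in Δsds3, 5 rose in Δrlp1, 5 rose in Δrlp2 and 2 rose with TSA. Only 23 of the 28 had an adjusted p in Δrlp2 and 26 with TSA. Over all tested genes 20.2% rose and 11.5% fell in Δeaf-3 and 19.0% rose and 15.7% fell in Δsds3, and 14.6% rose in Δrlp1, 6.99% in Δrlp2 and 5.15% with TSA.

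**Figure D5:**
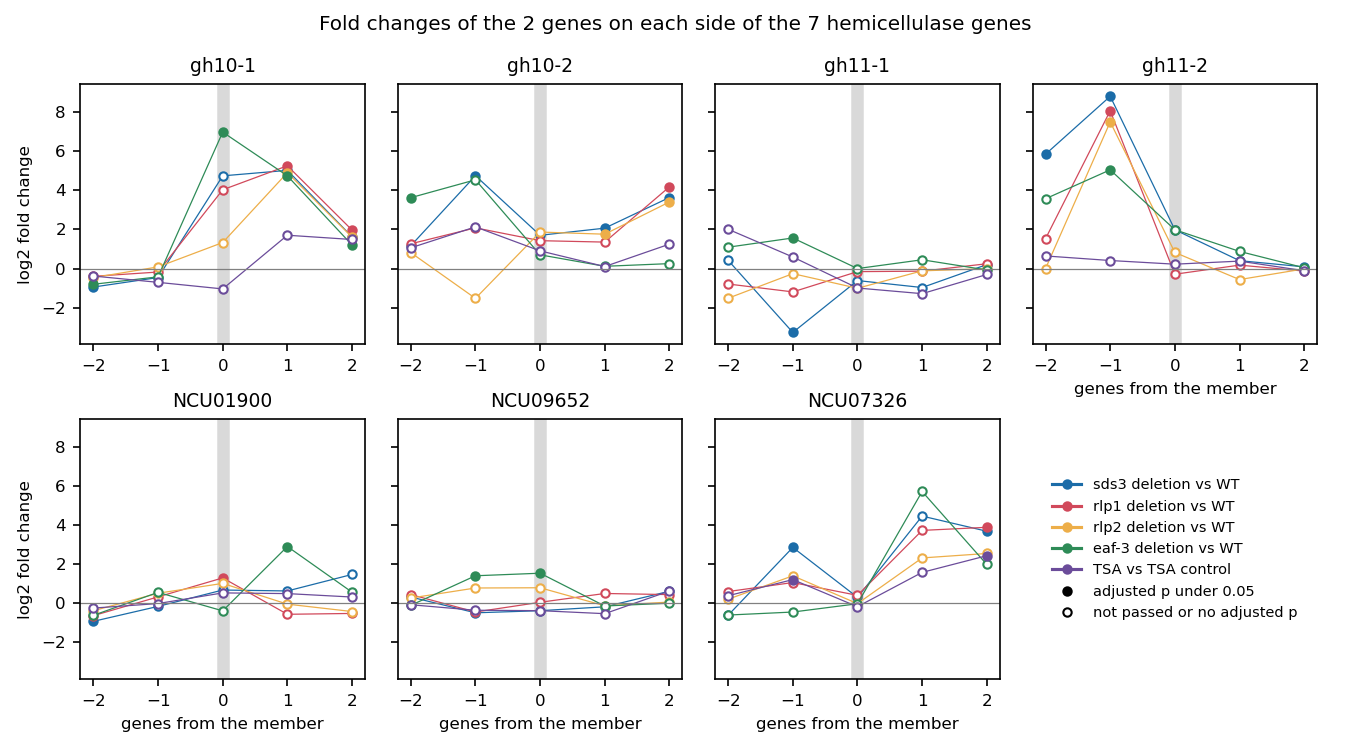
Log2 fold changes of the 7 hemicellulase genes (position 0, grey band) and of the 2 genes on each side in the reference gene order (x axis, counted in genes), with 1 colour per comparison; filled points have an adjusted p under 0.05. The gene at +1 from gh10-1 is cdh-2, filled in all 4 deletions at 4.74 to 5.26, and the gene at -1 from gh11-2 is NCU07226, filled in all 4 at 5.05 to 8.81. The implied WT mean of NCU07226 is 0.17, so its sizes depend on the authors' model.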

How the data were processed

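Only 5 tables of the authors' comparisons were used. The submitters' processing notes name STAR 2.7.3a, RSEM 1.3.1 and DESeq2 1.24.0. What each did, and on which genome build, is not stated there or in the labels. The deposited columns are, per the file headers, the category score, FDR, p-value, log2 fold change and average of every gene. The average is read as a normalized signal, pooled by the authors over libraries that are not named, and it was identical across the 4 deletion tables (9477 genes). Recomputing the FDR from the deposited p-values by Benjamini-Hochberg, over genes that have one, gave the same values to within 2.7e-15. The deposited category score marks genes that pass both an FDR of 0.05 and an absolute log2 fold change of 2. With 0 columns of values per library, no count test was run and depth is unknown. The p-values rest on the authors' model of the spread between libraries, and which libraries entered each fit is not stated.

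Each standard error is the size of the log2 fold change over the two-sided normal quantile of its p, and gives the 95% interval. Group means were implied as 5 times the average, shared out by the 4 fold changes. Differences between deletions were tested over all genes with a two-sided normal test and Benjamini-Hochberg adjustment, after a check on simulated data. One alternative takes off the covariance that WT would give if it made up equal parts of both errors. Symbols and gene order came from a RefSeq gene table (assembly NC12), which matched 9551 of 9552 identifiers. Genes were named by a rule: the 7 members, other gh10, gh11 and gh43 symbols, at most 4 called genes of a list and comparison in order of adjusted p, the 2 flanking genes on each side, and the 3 genes nearest in fold change with an average of at least 20. Beyond it, gh3-7, xlr-1 and cre-1, and values where a listed gene did not pass, were chosen after their values were seen. The members and lists were chosen with earlier results of these data known. Overlapping genes and related family members may share reads. Python 3.11.15, numpy 2.4.6, pandas 2.3.3, scipy 1.17.1 and matplotlib 3.10.9 were used.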

Additional observations from a re-analysis of the deposited data

Results flagged for a closer look

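NCU09652 had a higher value in Δeaf-3 than in Δsds3 against the same WT libraries, by 1.92 on the log2 scale. NCU01900 had a lower value in Δeaf-3 than in Δrlp1, with a difference of -1.69. Both were picked out because the test of the difference between the deletions passed.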

How the results depend on the processing

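The counts of called hemicellulase genes stayed at 0 for Δsds3, Δrlp2 and TSA and at 1 for Δrlp1 under all 5 alternatives: adjusted p under 0.01, an added absolute log2 fold change over 1, adjustment over every gene with a p, only genes of average at least 10, and centring on the median. For Δeaf-3 the count was 1 in place of 2 among genes of average at least 10, since gh10-1 with its average of 5.87 is not in that set, and 2 otherwise. All 165 recomputed values of single members kept their direction and their side of the threshold. Of the 42 differences between deletions none passed at an adjusted p under 0.01 and 5 passed with the assumed WT share of variance removed. The share of all genes whose difference passed was not computed for these settings. Of 156 recomputed differences 1 changed sign, that of gh11-2 for Δeaf-3 minus Δsds3, from 0.0013 to -0.016 after centring, which is small against its error of 2.21. With TSA, centring moved the share of calls that were higher among all genes from 58.7% to 70.0%. The implied WT mean of gh10-1 was 0.55 in place of 0.17 with the average taken on the log scale. No paired analysis was possible because the tables carry no value per library, and no replicate could be left out for the same reason. The wide errors of gh10-1 and gh11-2, with averages under 10, set the limit on what could be seen.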

Other observations

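Genes with fold changes most like those of a hemicellulase gene were looked up over the 4 deletion comparisons, which share WT, as a description with no test. The measure was the Euclidean distance between log2 fold changes, among genes with an average of at least 20. A shared highest or lowest group follows from this choice and is no separate evidence. NCU07326 was closest to trax (distance 0.14), NCU05423 (0.16) and NCU03178 (0.16). NCU09652 was closest to NCU07164 (0.24), NCU09183 (0.34) and NCU17137 (0.37), all with their highest value of the 4 in Δeaf-3, at 1.70, 1.74 and 1.53. NCU01900 was closest to NCU01500 (0.29), NCU04008 (0.32) and NCU09215 (0.35), each with its highest value in Δrlp1 and a value under 0 in Δeaf-3. gh10-2 was closest to NCU07979 (0.35), NCU08455 (0.35) and NCU10537 (0.39). For gh11-1 the closest gene was NCU16999 (0.20) and for gh11-2 NCU01917 (0.71). The closest to gh10-1 lay farther off, namely NCU09685 (1.92), NCU01109 (1.98) and NCU04710 (2.09).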
